A study of Homo sapiens with 97 samples.

Results

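The solute carriers (SLC genes) encode membrane proteins that move amino acids, sugars, ions, metals, nucleotides and vitamins across the plasma membrane and the membranes of organelles. The genes described here were chosen by name and by level: a deposited name that starts with SLC and a number, without the mitochondrial SLC25A carriers, antisense names and pseudogene names, and a mean of at least 5 CPM (counts scaled to a common library total) over the 18 unlabelled libraries of the construct table. Of 417 such names, 76 were SLC25A, 8 antisense or opposite strand and 20 pseudogenes, and 153 of the other 313 reached the level, of 60675 gene identifiers in all. The last gene inside the threshold was SLC22A15 at 5.61 CPM and the first outside was SLC35E4 at 4.94 CPM. The name and the unlabelled level were the values that chose the genes. The unlabelled libraries of the construct table are also 1 side of its contrasts, whereas the drug, nocodazole and fractionation libraries played no part in the choice.

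RNA was measured by APEX-seq in HEK293T cells, a human embryonic kidney cell line, stably expressing the peroxidase APEX2 fused to a targeting sequence. Cells were given biotin-phenol and then hydrogen peroxide, which biotinylates RNA near the enzyme, and the biotinylated RNA was enriched and sequenced. Unlabelled controls had the same treatment without hydrogen peroxide. The 9 constructs were NLS (nucleus), NIK (nucleolus), LMA (nuclear lamina), NucPore (nuclear pore), NES (cytosol), ERM (the cytosolic face of the ER membrane), KDEL (ER lumen), OMM (outer mitochondrial membrane) and MITO (mitochondrial matrix, as poly(A) and as total RNA), each with 2 labelled and 2 unlabelled libraries. The OMM and NES cells were also treated with cycloheximide, puromycin or CCCP, or with nocodazole for 3, 6, 9 or 30 min or 2 h, with unlabelled nocodazole controls at 3 and 30 min only. Nuclear and cytosol biochemical fractions of HEK293T cells had 2 libraries each. The labels call the construct libraries biological replicates but do not say what separated them, so p-values measure the spread between these libraries.

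An mRNA for a membrane protein is usually translated at the ER: the first hydrophobic segment of the growing chain is bound by the signal recognition particle, which brings the ribosome and its mRNA to the ER surface. Cycloheximide stops ribosomes on the mRNA, and puromycin releases the chain and takes the ribosome off. SLC proteins usually cross the membrane many times, so their mRNAs carry many hydrophobic segments. In the genetic code, codons with T at the second position specify hydrophobic residues, so a run of such codons marks a hydrophobic segment in the DNA itself.

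That property can be read from the coding sequences. The windows below are 19 codons (57 bases) of GENCODE 29 coding sequence on GRCh38, each within 1 coding exon, written in the sense of the gene, with capitals at every T in the second position of a codon. The first 5 show multi-pass transporters and the subunit SLC3A2, and the last 3 show proteins for which no window reached 12 such codons.
SLC7A5: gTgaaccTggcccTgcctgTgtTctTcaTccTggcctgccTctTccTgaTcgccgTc
SLC39A10: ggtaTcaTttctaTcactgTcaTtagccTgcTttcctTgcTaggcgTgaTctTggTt
SLC38A2: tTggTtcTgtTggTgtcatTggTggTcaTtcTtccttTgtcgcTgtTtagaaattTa
SLC16A1: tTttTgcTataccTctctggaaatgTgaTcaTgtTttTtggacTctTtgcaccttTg
SLC3A2: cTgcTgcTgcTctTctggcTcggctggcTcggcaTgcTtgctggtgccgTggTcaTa
SLC30A9: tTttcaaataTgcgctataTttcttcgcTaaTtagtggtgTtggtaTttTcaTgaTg
SLC9A3R1: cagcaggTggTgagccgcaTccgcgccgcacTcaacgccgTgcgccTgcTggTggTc
SLC4A1AP: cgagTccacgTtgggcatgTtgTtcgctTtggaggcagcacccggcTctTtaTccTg

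The SLC7A5 window lies at chr16:87834535-87834591 on the minus strand and holds 13 codons with a second-position T, at codons 431 to 449 of 507. The window of the zinc transporter SLC39A10 at chr2:195706627-195706683 (plus strand) also holds 13, that of SLC38A2 at chr12:46365108-46365164 (minus strand) holds 14, and that of SLC16A1 at chr1:112917563-112917619 (minus strand) holds 12. The window of SLC3A2 at chr11:62881273-62881329 (plus strand) holds 12. SLC30A9, at chr4:42062993-42063049 (plus strand), reached 10. SLC9A3R1, at chr17:74749063-74749119 (plus strand), and SLC4A1AP, at chr2:27664518-27664574 (plus strand), reached 9 each. Across the 153 genes the median share of codons with a second-position T was 36.4%, against 26.4% over the 10678 coding genes at the same level and 31.2% over 38 SLC25A carriers. Only 10 of the 153 (6.54%) had no window of at least 12 such codons, against 81.8% of the 10678 and 36 of the 38 carriers. Of those 10, 4 encode soluble proteins that carry an SLC name: the scaffolds SLC9A3R1 and SLC9A3R2 (now NHERF1 and NHERF2), SLC4A1AP and SLC2A4RG. The other 6 were SLC50A1, SLC30A9, SLC35A2, SLC35A3, SLC39A11 and SLC48A1.

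In unlabelled libraries the 153 genes together made up 8933 CPM, with a median of 34.4 CPM, and the 10 highest held 30.6% of it. The highest were SLC16A1, the lactate and pyruvate carrier, at 436 CPM, the glutamine carrier SLC1A5 at 406 CPM, and SLC7A5, which carries large neutral amino acids, at 301 CPM. Libraries held 2835969 to 76714068 counts, and the construct libraries 9330259 or more. All 153 genes passed the filter on low counts in every table. Libraries that lacked many well-expressed genes are a limit here: the percentage of genes of at least 5 CPM with a count of 0 reached 16.7 in 1 unlabelled nocodazole library, 12.1 and 13.9 in both OMM unlabelled libraries at 3 min, 7.66 in 1 unlabelled OMM cycloheximide library and 4.59 in ERM labelled replicate 1. NEFM, a neurofilament gene that HEK293 lines express, stood at 68.4 CPM and the kidney developmental gene PAX2 at 1.3 CPM. HBB, CD3E and COL1A2, which mark other cell types, stood at 0, 0 and 0.00175 CPM. PTPRC and ALB, which also mark other cell types, had means of 0.516 and 0.221 CPM and library maxima of 5.89 and 3.95 CPM. Some landmark genes followed their constructs: MALAT1 was higher with NLS (log2 fold change 3.65), CANX with ERM (2.10), ALDH18A1 with OMM (3.32) and MT-ND5 with MITO (5.39). Others did not. The ER chaperone HSPA5 stood at 0.27 with ERM and -0.02 with KDEL, and CANX was also higher with OMM (1.66). With NES, ACTB stood at 0.04, GAPDH at -0.41 and RPS18 at -1.30, so these cytosolic mRNAs did not rise there.

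The summed level of the 153 SLC mRNAs was higher with labelling at the ER membrane and at the outer mitochondrial membrane, and not with the cytosolic construct. Not every gene followed the sum: 83% of the 153 had a log2 fold change above 0 with ERM, 91.5% with OMM and 43.8% with NES. Values are given as TMM-scaled CPM, which is CPM after edgeR's TMM scaling between libraries. Their sum was 18638 and 19497 in the ERM labelled libraries against 7880 and 8006 unlabelled, 2.40 times as much. With OMM it was 16305 and 17440 against 8874 and 8085, 1.99 times as much. With NES it was 7884 and 7300 against 7934 and 8213, 0.94 times as much, so the labelled and unlabelled cytosolic libraries did not separate upwards. With KDEL, in the ER lumen, both labelled sums (9677 and 9019) lay below both unlabelled sums (10416 and 9788), as they did with NES. The same held with NIK (8279 and 7950 against 8939 and 8997) and NucPore (8781 and 8343 against 8898 and 9276). Smaller rises were seen with 2 other constructs. With MITO poly(A) RNA the sum was 8999 and 10764 against 8674 and 8707, 1.14 times as much. With LMA it was 8582 and 9244 against 8273 and 7731, 1.11 times as much.

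**Figure D1:**
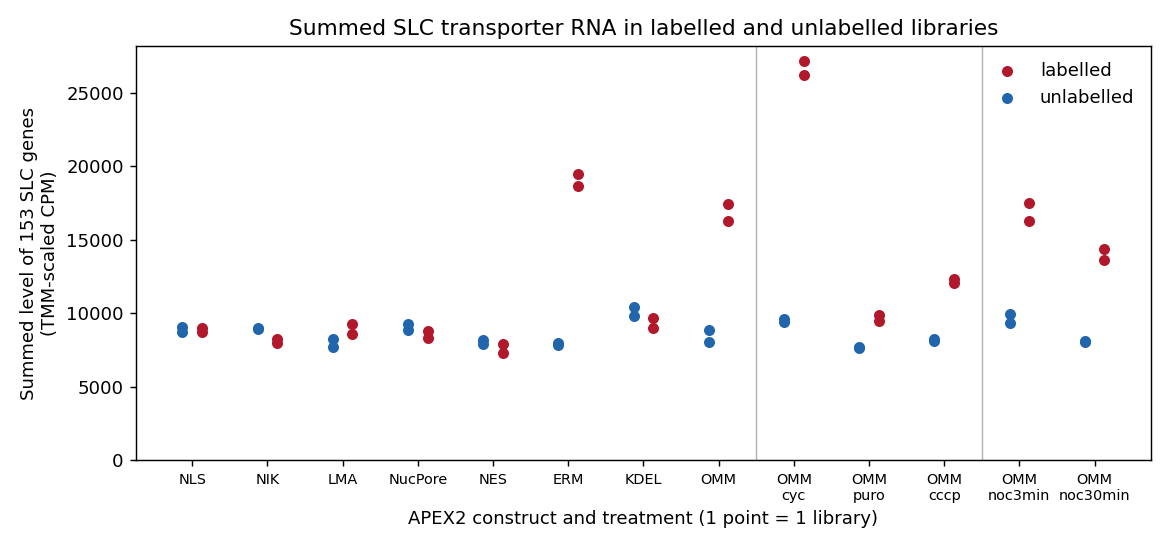
Summed level of the 153 SLC genes in TMM-scaled CPM (y axis) by construct and treatment (x axis), with 1 point per library, red for labelled and blue for unlabelled. ERM and the OMM libraries, drug-treated ones included, stand above their controls, at up to 27197 under cycloheximide, while NES without drug and KDEL do not rise. LMA stands slightly above its controls. Drug-treated NES libraries and MITO libraries are not drawn.

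A gene was called where edgeR's quasi-likelihood test gave a Benjamini-Hochberg adjusted p under 0.05 over all genes tested. With ERM, 54 of the 153 genes were called higher and 0 lower, while 10.2% of all 11676 genes of at least 5 CPM were called higher and 14% lower. The median log2 fold change was 1.02 over the 153 genes and -0.01 over the 11676. Over the 38 SLC25A carriers, whose proteins are made in the cytosol and sent to mitochondria, it was -0.18, with 1 called higher and 6 lower. The 23 P-type ATPases at the same level, which are multi-pass ion and lipid pumps, had 14 higher and 0 lower (median 1.56), and the 22 ABC family genes had 4 higher and 1 lower (median 0.41).

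Amino acid carriers gave 14 of the 54 calls, of 28 in that group (median 1.44). SLC7A1, the cationic amino acid transporter that takes up arginine and lysine, stood at 782 and 798 in the ERM labelled libraries against 179 and 138 unlabelled. Its log2 fold change was 2.32 ± 0.22 (SE), adjusted p = 1.52e-09. SLC7A5 stood at 624 and 721 against 132 and 185, a log2 fold change of 2.09 ± 0.23 (adjusted p = 2.13e-08). Both labelled libraries lay above both unlabelled libraries for either gene, as they did for 31.5% of the 11676 genes. The glutamine and neutral amino acid carriers SLC38A1 (1.84), SLC38A2 (1.21) and SLC1A5 (0.90) were called too. SLC3A2, the single-pass heavy chain that pairs with SLC7A5 and SLC7A11 at the cell surface, was not: it stood at 203 and 164 labelled against 178 and 251 unlabelled, and these ranges overlap (log2 fold change -0.22 ± 0.23, adjusted p = 0.669). The cystine carrier SLC7A11 had 102 and 114 against 33.7 and 21.9, a log2 fold change of 1.95 with a wide SE of 0.79 (adjusted p = 0.114).

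Ion and metal carriers gave 19 calls. Of 24 inorganic ion cotransporters and exchangers, 9 were higher, among them the Na-K-Cl cotransporter SLC12A2, at 189 and 173 labelled against 37.9 and 37.2 unlabelled (2.27 ± 0.34, adjusted p = 7.28e-06), the sulfate carrier SLC26A2 (2.41 ± 0.45) and the phosphate carrier SLC20A1 (1.24 ± 0.21). Of 24 metal carriers, 10 were higher. SLC39A10, a zinc importer, stood at 539 and 507 against 97.7 and 114 (2.31 ± 0.33, adjusted p = 2.88e-06), about as far from its controls as SLC7A1. The copper importer SLC31A1 (1.98) and the zinc and iron importer SLC39A14 (1.53) were called as well. SLC16A1, the most abundant of the 153, stood at 1208 and 1187 against 408 and 403 (1.56 ± 0.17, adjusted p = 1.46e-08).

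Carriers that stay inside the cell rose too. Of 28 proteins listed for the ER and Golgi, 12 were higher (median 1.23), and the 21 nucleotide sugar carriers and their relatives, mostly Golgi proteins, held 10 calls, led by SLC35B4 (2.08, adjusted p = 9.37e-09) and SLC35E1 (1.84, adjusted p = 3.42e-07). Of 46 listed for the plasma membrane, 25 were higher (median 1.27). Of 18 endolysosomal proteins 3 were higher (median 0.75), and of 54 with no listed location 12 (median 1.00). Level moved with these counts: the median was 63.9 CPM for the plasma membrane list, 54.4 for the ER and Golgi list and 27.5 for the endolysosomal list, and over all 153 genes 20 of 25 at 100 CPM or more were called but 2 of 50 under 20 CPM, where the median log2 fold change was still 0.84. Its part in the counts was not tested.

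None of the 4 soluble proteins with an SLC name was called with ERM, and their median was -0.48. SLC9A3R1 stood at 34.1 and 21.8 labelled against 55.1 and 57.8 unlabelled (-1.01 ± 0.37, adjusted p = 0.0675). Of the 3 mitochondrial proteins outside SLC25A, the inner-membrane sodium-calcium exchanger SLC8B1 was higher, at 52.9 and 43.8 against 6.29 and 11.5 (2.44 ± 0.81, adjusted p = 0.0416), a call lost without any 1 of the 4 libraries (adjusted p from 0.0526 to 0.278). SLC30A9, a mitochondrial zinc transporter, stood at 309 and 186 against 161 and 114 (0.84 ± 0.25, adjusted p = 0.0186). Leaving out ERM labelled replicate 1 brought it to 0.43 (adjusted p = 0.474), and leaving out ERM unlabelled replicate 2 to 0.58 (adjusted p = 0.311). Leaving out ERM unlabelled replicate 1 left 31 of the 54 calls in number.

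With OMM, 32 genes were called higher and 0 lower, where 5.81% of the 11676 genes were higher and 3.85% lower. The median was 0.94, against 0.06 over the 11676. The plasma membrane list gave 21 of the 32 calls, of 46. SLC7A5 stood at 473 and 535 labelled against 123 and 129 unlabelled (2.00 ± 0.23, adjusted p = 2.6e-07), and the folate carrier SLC19A1 at 177 and 180 against 49.7 and 28.1 (2.20 ± 0.33, adjusted p = 3.17e-05). SLC16A1 rose by 1.26 ± 0.17 and SLC39A10 by 1.78 ± 0.32. SLC3A2 again overlapped its controls (0.22 ± 0.23, adjusted p = 0.755), and SLC30A9 at 202 and 218 against 178 and 184 was not called (0.22 ± 0.25, adjusted p = 0.799). Without OMM unlabelled replicate 2, in which 3.29% of well-expressed genes had a count of 0, 16 genes were called, and 18 and 17 without labelled replicate 1 and 2.

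The soluble scaffold SLC9A3R2 was called higher with OMM, at 20.9 and 22 against 8.11 and 2.45 (2.02 ± 0.55, adjusted p = 0.0233). Its OMM controls were low: the unlabelled libraries of the other constructs held 11.4 to 42.7. Against all 18 unlabelled libraries its log2 fold change was -0.02 (adjusted p = 1), and the call was also lost without any 1 of OMM labelled replicate 1 and 2 and unlabelled replicate 2 (adjusted p from 0.0987 to 0.507). Controls also bore on SLC7A5, whose unlabelled level was 86.7 to 185 in the ERM, NES and OMM libraries and 314 to 463 in those of the other 6 constructs. Against all 18 its log2 fold change was 1.35 with ERM and 0.94 with OMM, both still called by edgeR. The spread in that test came from within groups of 2 libraries and left out differences between the controls of different constructs. In the authors' deposited DESeq2 results, in columns named 18C, SLC7A5 stood at 1.21 with ERM (p = 0.0245) and 0.74 with OMM (p = 0.317). The same columns held lower values for SLC19A1 with OMM (1.09) and SLC1A5 with ERM (0.59) than those given above. Neither had a DESeq2 p-value under 0.05 there. With OMM, SLC16A1 (1.16) and SLC39A10 (1.87) stayed near the values given above.

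The test of the difference between ERM and OMM called 0 of the 153 genes, with a median difference of 0.12; 0.351% of the 11676 genes were called higher with ERM and 3.01% lower. At an unadjusted p under 0.05 there were 10 of the 153, beside 3093 of all 22680 genes tested, and DESeq2 called 3. Of the 54 genes called with ERM and the 32 with OMM, 26 were in both lists, 48.1% of the first and 81.2% of the second. Across the 153 genes the log2 fold changes of ERM and OMM had a Pearson r of 0.48 and a Spearman rho of 0.48, a description over genes that are not independent and that share their library preparation.

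**Figure D2:**
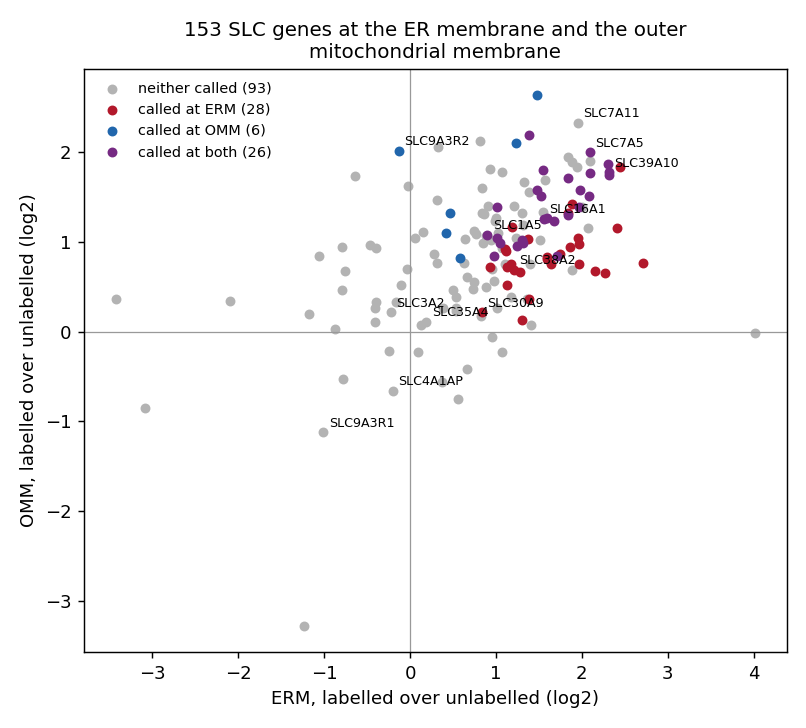
Log2 fold change of labelled over unlabelled libraries for each of the 153 SLC genes with ERM (x axis) and OMM (y axis), coloured by where the gene was called. SLC7A5 and SLC39A10 lie at the upper right, at 2.09 and 2.31 with ERM, and SLC3A2 and SLC4A1AP near or below 0.

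The cytosolic construct gave 2 calls, 1 in each direction, where 2.68% of the 11676 genes were higher and 4.86% lower. SLC16A1 was lower, at 295 and 265 labelled against 579 and 412 unlabelled (-0.83 ± 0.16, adjusted p = 0.00184). SLC7A5 was higher, at 249 and 239 against 86.7 and 156 (1.01 ± 0.22, adjusted p = 0.00461), but stood at -0.11 (adjusted p = 0.795) against all 18 unlabelled libraries, and the call was lost without NES unlabelled replicate 1 (0.61, adjusted p = 0.387). Without NES unlabelled replicate 2 there were 30 calls, 23 higher. The test of ERM against NES labelling called 30 genes higher and 0 lower (background 4.17% and 3.24%). SLC12A2 differed by 2.67 ± 0.47 (adjusted p = 0.000437), SLC16A1 by 2.39 ± 0.23 (adjusted p = 5.45e-08) and SLC39A10 by 2.41 ± 0.45 (adjusted p = 0.000888). OMM against NES called 14 higher and 0 lower (background 3.07% and 0.274%), led by SLC16A1 at 2.08 ± 0.23 (adjusted p = 1.17e-06). Without NES labelled replicate 1 or 2 the ERM count was 18 or 16 and the OMM count 9 or 5, and the OMM count was 9 and 8 without OMM labelled replicate 1 and 2, 28 and 8 without OMM unlabelled replicate 1 and 2, and 26 without NES unlabelled replicate 2. Without that last library both tests also called genes lower: OMM 18 higher and 8 lower, and ERM 32 higher and 12 lower.

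In the matrix construct 6 genes were called higher with poly(A) RNA and 0 lower (background 1.7% and 0.351%). They were the ER and Golgi zinc transporters SLC39A7 and SLC39A9, SLC35A4 of the nucleotide sugar family, the potassium-chloride cotransporter SLC12A4, and the amino acid carriers SLC6A15 and SLC7A1. SLC39A7 stood at 530 and 841 labelled against 188 and 182 (1.89 ± 0.24, adjusted p = 2.87e-06). In the total RNA table, labelled replicate 1 had 10.2% of well-expressed genes and 16 of the 153 at 0, and 83% of its counts were mitochondrial. SLC39A7 was also the 1 gene called with total RNA (background 0.702%), at 113 and 171 against 51.5 and 48.5 (1.52 ± 0.30, adjusted p = 0.0367), though no call was left there when either unlabelled library or labelled replicate 1 was left out. With poly(A) RNA 3 calls were left without MITO labelled replicate 2. SLC35A4 stood at 456 and 377 against 179 and 160 (1.30 ± 0.23, adjusted p = 0.000848) with poly(A) RNA, and was not called with ERM (0.19) or OMM (0.11).

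With the nuclear constructs the shares of SLC genes called were near or below those of all well-expressed genes, except LMA higher at 8.5% of the 153. NLS gave 5 higher and 2 lower (background 5.2% and 4.69%), among them the anion exchanger SLC26A6, at 133 and 110 against 31.3 and 47.2 (1.63 ± 0.34, adjusted p = 0.00208), and SLC16A1 (-0.73). LMA gave 13 higher and 4 lower (background 6.73% and 7.78%), with SLC44A5, a choline-transporter-like protein, at 136 and 119 against 18.5 and 12.8 (3.03 ± 0.46, adjusted p = 2.29e-05) and the inositol carrier SLC5A3 at 137 and 154 against 13.7 and 47.1 (2.26 ± 0.38). NIK gave 0 higher and 9 lower (background 2.48% and 7.09%). SLC8B1 was at 0 in both NIK labelled libraries and at 7.85 and 9.09 in the unlabelled, at least 140-fold lower against a floor of 3 counts over the group, and 6% of well-expressed genes had a count of 0 in NIK labelled replicate 1. NucPore and KDEL gave 0 calls by edgeR among all genes tested (background 0%). At an unadjusted p under 0.05 there were 13 and 0 of the 153, beside 1341 and 46 of all 22680 genes tested. DESeq2 called 2 of the 153 lower with NucPore and 0 with KDEL. Leaving out 1 library gave 2 to 4 calls with NLS and 5 to 11 with LMA; with NIK it gave 31 without labelled replicate 2 and 4 without unlabelled replicate 2, and with NucPore 6 without labelled replicate 2.

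**Figure D3:**
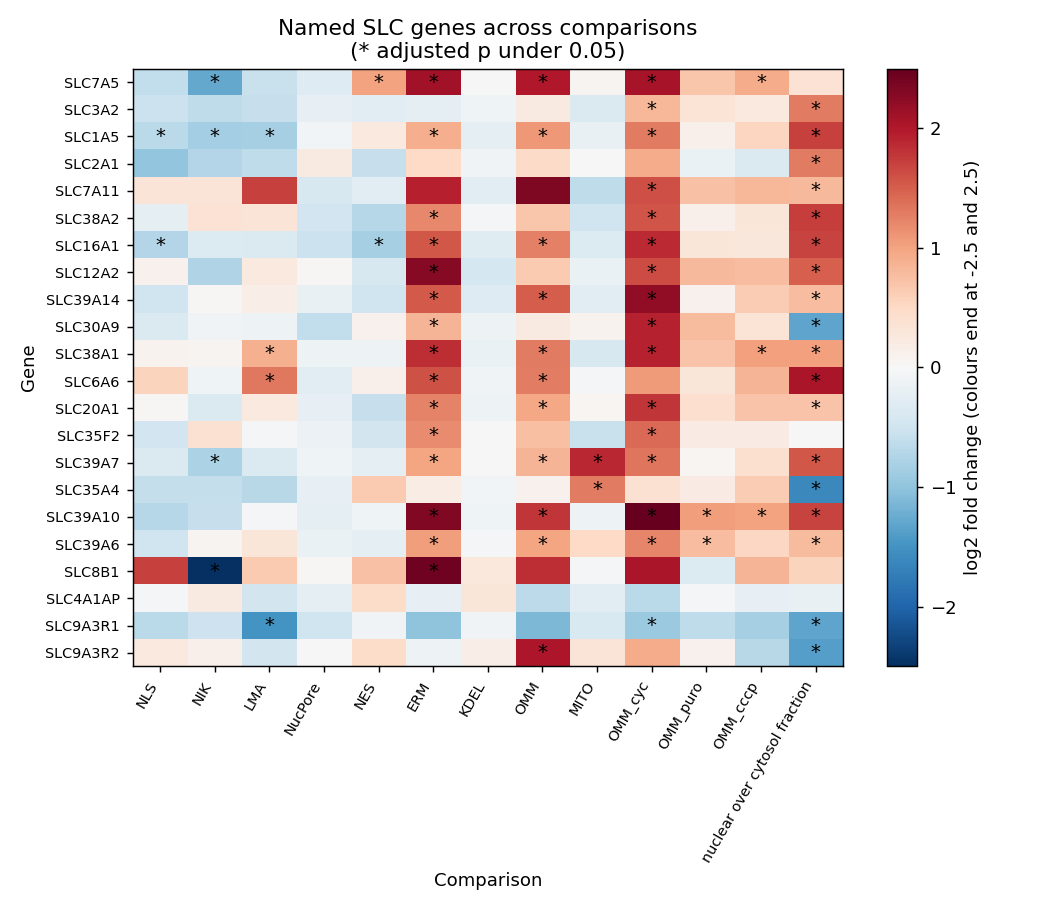
Log2 fold change (colour, ending at -2.5 and 2.5) of 22 named SLC genes (rows) in 13 comparisons (columns), with a star where the adjusted p was under 0.05. The ERM, OMM and OMM cycloheximide columns are red for most carriers, with SLC7A5 at 2.09, 2.00 and 2.07, and the soluble SLC9A3R1 is blue in the last of these at -0.92.

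Longer SLC transcripts had higher ERM values. Of the 51 shortest (1281 to 2882 bases of the chosen GENCODE transcript) 7 were called higher (median log2 fold change 0.42), of the middle 51 there were 16 (0.94), and of the 51 longest (4398 to 17791 bases) 31 (1.59). Unlabelled level moved the same way, with medians of 26.3, 29.1 and 41.8 CPM; its part was not tested. Over the 153 genes Spearman's rho of length with the ERM value was 0.57 (Pearson r 0.43), and over 10525 other coding genes 0.58 (0.42), a description across genes. For the length after the coding sequence (3' UTR) it was 0.56 (0.40) over the 153 genes, and for the number of codons 0.07 (0.11). The number of hydrophobic windows had a weaker relation with the ERM value (Pearson r 0.19): 2 of the 10 genes without a window were called, 30 of 86 with 1 to 3, 18 of 51 with 4 to 7 and 4 of 6 with 8 or more.

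**Figure D4:**
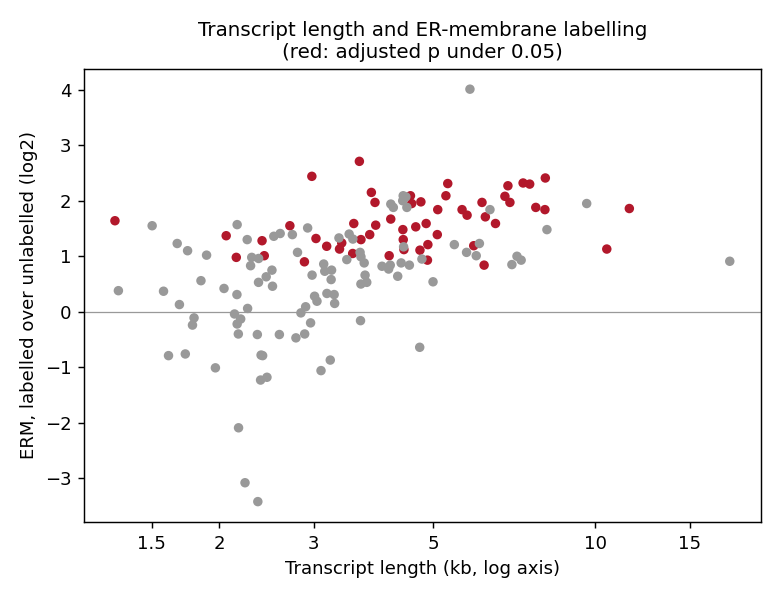
ERM log2 fold change (y axis) against transcript length in kb on a log axis (x axis) for the 153 SLC genes, red where the adjusted p was under 0.05. Red points are densest at the right, where 31 of the 51 longest transcripts were called.

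The translation inhibitors separated the SLC mRNAs at the mitochondrial surface. Under cycloheximide, 72 of the 153 were called higher with OMM and 1 lower (background 16.2% and 9.79%), with a median of 1.34. Their sum was 26188 and 27197 labelled against 9398 and 9589 unlabelled, 2.81 times as much. Under puromycin 4 were higher and 0 lower (background 1.73% and 2.18%), the median was 0.27, and the sum was 9480 and 9879 against 7664 and 7706, 1.26 times as much. The cytosolic construct gave about the same ratio under puromycin: its sum was 9273 and 9719 against 7960 and 7855, 1.20 times as much, with 8 genes higher and 1 lower (background 4.98% and 8.41%). With NES under CCCP the sum was 10201 and 9468 against 8032 and 8239, 1.21 times as much, with 8 higher and 1 lower (background 5.69% and 9.33%). With NES under cycloheximide it was 10622 and 8330 against 8483 and 9208, 1.07 times as much and overlapping, with 16 higher and 9 lower (background 12.4% and 14.3%). The labels give no dose or time for these drugs.

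SLC16A1 under cycloheximide stood at 1677 and 1832 labelled against 475 and 485 (1.87 ± 0.17, adjusted p = 2.61e-07), and under puromycin at 404 and 395 against 305 and 337 (0.31 ± 0.17, adjusted p = 0.551). SLC39A10 stood at 733 and 743 against 116 and 73.7 (2.96 ± 0.28, adjusted p = 4.2e-07), and under puromycin at 128 and 131 against 53.8 and 71.1 (1.05 ± 0.27, adjusted p = 0.0451). The labelled libraries lay above the unlabelled for both genes under either drug. So they did for 35% of the 11676 genes under cycloheximide and 41.9% under puromycin. By location, 35 of 46 plasma membrane carriers and 18 of 28 ER and Golgi carriers rose under cycloheximide, and the 1 gene that fell was soluble SLC9A3R1, at 28.3 and 29.5 against 57 and 52.7 (-0.92 ± 0.25, adjusted p = 0.0147). That call was lost without labelled replicate 1 or 2 (adjusted p = 0.107 and 0.0852), and also with no filter on low counts, with only the compared libraries and with the replicate block. SLC3A2 was called here, at 348 and 363 against 205 and 195 (0.83 ± 0.17, adjusted p = 0.00138). The 4 genes called under puromycin, SLC7A2, SLC39A10, SLC31A1 and SLC39A6, are carriers of cationic amino acids, zinc, copper and zinc, and 0 were called when any 1 library was left out.

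The test of puromycin against cycloheximide labelling with OMM called 24 genes lower and 0 higher (background 6.71% and 1.96%), with a median difference of -1.12. SLC39A14 differed by -2.12 ± 0.46 (adjusted p = 0.00782), SLC39A10 by -1.91 ± 0.38 (adjusted p = 0.00376), SLC16A1 by -1.55 (adjusted p = 0.00037) and SLC7A5 by -1.37 (adjusted p = 0.0153). The count was 65 and 40 without OMM cycloheximide unlabelled replicate 1 and 2, 11 and 12 without OMM puromycin labelled replicate 1 and 2, and 15 without OMM puromycin unlabelled replicate 2. Unlabelled RNA differed as well: 3 genes were higher and 18 lower in puromycin than in cycloheximide over the OMM and NES controls (background 4.76% and 5.35%), with SLC39A6 lower by -1.19 ± 0.12 (adjusted p = 4.43e-05). That balance turned to 33 higher and 30 lower without OMM cycloheximide unlabelled replicate 1. SLC22A15 was at 0 in both OMM cycloheximide unlabelled libraries and at 19.2 and 13.6 labelled, at least 287-fold higher against a floor of 3 counts over the group. That fold rests on controls in which 2.97% and 7.66% of well-expressed genes had a count of 0. In the NES cycloheximide unlabelled libraries SLC22A15 stood at 14.1 and 6.37. The part of missing genes in this fold was not tested.

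Against NES labelling under the same drug, OMM called 46 genes higher and 1 lower in cycloheximide (background 14.8% and 7.25%), 0 in puromycin (background 0.18% and 0.00856%) and 0 in CCCP (background 0.0171% and 0%). At an unadjusted p under 0.05 there were 3 and 13 in the last pair, beside 1861 and 1648 of all 21441 genes tested. DESeq2 called 1 and 2. The cycloheximide count was 27 without NES cycloheximide labelled replicate 2 and 84 without OMM cycloheximide unlabelled replicate 1. SLC16A1 differed by 2.04 in cycloheximide (adjusted p = 8.02e-06), with 1.87 at OMM and -0.18 at NES. SLC3A2 differed by 2.37 (adjusted p = 1.03e-06), but most of that was a fall at NES, where it stood at 99.3 and 79.2 labelled against 241 and 279 unlabelled (-1.54 ± 0.17, adjusted p = 2.24e-06), beside 0.83 at OMM. CCCP, which collapses the mitochondrial membrane potential, gave 23 higher and 0 lower with OMM (background 5.28% and 6.55%; median 0.53). SLC7A5 stood at 557 and 557 against 288 and 300 (0.92 ± 0.23, adjusted p = 0.0186), and SLC16A1 at 545 and 569 against 473 and 442 was not called (0.28 ± 0.17, adjusted p = 0.343). The CCCP count was 7, 7, 11 and 15 without labelled replicate 1, labelled replicate 2, unlabelled replicate 1 and unlabelled replicate 2.

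SLC30A9 differed between the cycloheximide and untreated libraries. Its cycloheximide value of 1.92 was within the range of the 25 genes at 100 CPM or more (0.39 to 2.96, median 1.57). With OMM under cycloheximide SLC30A9 was at 629 and 715 labelled against 231 and 123 (1.92 ± 0.23, adjusted p = 7.82e-06). Without drug its labelled and unlabelled libraries differed by 0.22. In the fit that joined both tables, the difference between cycloheximide and no drug was 1.69 ± 0.31 (adjusted p = 0.00199). That test called 4 genes higher, 2.61% of the 153, and 0 lower (background 2.89% and 0.223%), so the share was near the background. The others were SLC39A9 at 1.30 (adjusted p = 0.0425), and SLC22A15 and SLC46A3 with near-zero controls. The drug and untreated libraries come from separate tables, so table and drug cannot be told apart. Puromycin against no drug called 0 (background 0.146% higher and 0.454% lower) with a median of -0.70. At an unadjusted p under 0.05 there were 24 of the 153, beside 1728 of all 22078 genes tested, and DESeq2 called 12 lower. The cycloheximide count against no drug was 39 without OMM cycloheximide unlabelled replicate 1.

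**Figure D5:**
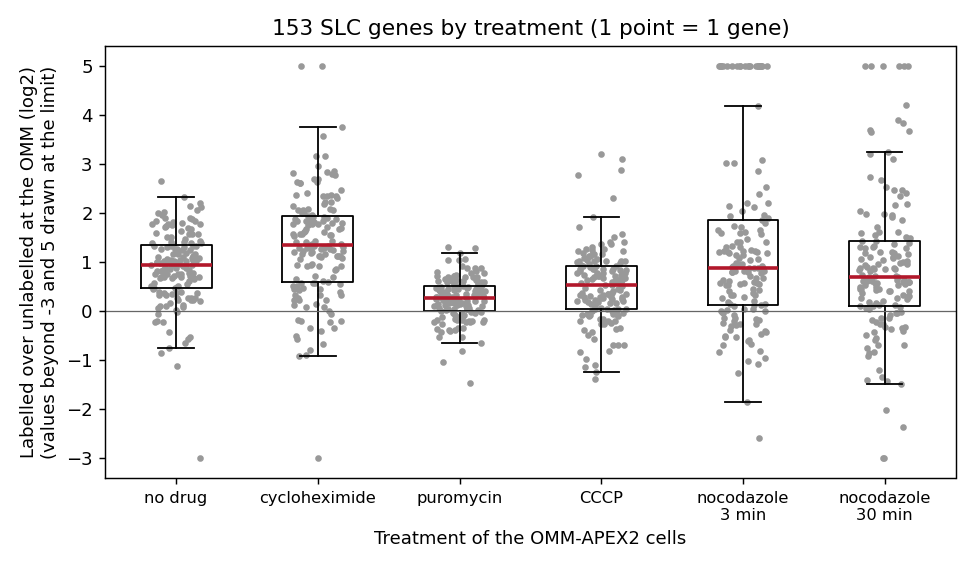
Log2 fold change of labelled over unlabelled OMM libraries (y axis) by treatment (x axis) for the 153 SLC genes; boxes show quartiles with the median in red, whiskers reach 1.5 times the quartile range, and values beyond -3 and 5 are drawn at the limit. The median is 0.94 without drug, 1.34 under cycloheximide and 0.27 under puromycin.

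Nocodazole, which takes microtubules apart, was followed at the mitochondrial surface. After 3 min 35 genes were higher and 0 lower (background 11.2% and 2.48%), and after 30 min 21 higher and 0 lower (background 3.79% and 2.37%). Many folds here rest on unlabelled libraries with 7 to 30 of the 153 genes at 0, so levels in the labelled libraries are given as well. Of these, labelled replicate 1 at 2 h had 10 of the 153 genes and 5.29% of well-expressed genes at 0. The summed labelled level with OMM was 16269 and 17500 at 3 min, 17144 and 18253 at 6 min, and 15146 and 14666 at 9 min. It was 13614 and 14351 at 30 min and 12982 and 12649 at 2 h, so both libraries at 2 h lay below all 4 at 3 and 6 min. The unlabelled sum was also lower at 30 min (8141 and 8057) than at 3 min (9941 and 9331). Labelled sums were 1.75 times the unlabelled at 3 min and 1.73 times at 30 min, so this ratio hardly changed between those times. SLC19A1 stood at 442 and 366 at 3 min and 183 and 134 at 2 h (-1.35 ± 0.30, adjusted p = 0.0432), and the anion exchanger SLC4A2 at 318 and 247 and then 77.5 and 137 (-1.40 ± 0.25, adjusted p = 0.00727). Those were the 2 genes called between 2 h and 3 min (background 0.24% higher and 0.514% lower), and at most 1 was called when any 1 of the 4 libraries was left out. SLC38A1 did not follow them, at 400 and 539 at 3 min and 572 and 626 at 2 h (0.35, adjusted p = 0.467). No unlabelled library was made at 2 h, so a change in the whole cell cannot be told apart from one at the surface. OMM against NES called 18 higher at 3 min (background 6.07%) and 2 at 30 min (background 0.719%). Without 1 library the OMM counts against controls ran from 26 to 54 at 3 min and from 6 to 53 at 30 min, highest without unlabelled replicate 1 at each time, and those against NES from 3 to 38 and from 1 to 43.

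In the biochemical fractions, SLC mRNAs were mostly higher in the nuclear fraction. Of the 153 genes 95 were higher there and 10 lower (background 24.3% and 38.2%), with a median of 0.91 against -0.25 over the 11676 genes and -0.60 over the 38 SLC25A carriers. SLC16A1 stood at 738 and 648 in the nuclear fraction against 212 and 221 in the cytosol (1.68 ± 0.17, adjusted p = 7.31e-06), and SLC38A2 at 469 and 388 against 134 and 125 (1.73 ± 0.17, adjusted p = 7.52e-06). Transcripts of the ER proteins CANX (1.77) and HSPA5 (2.05) were also higher in that fraction; their part in the result was not tested. With NLS, CANX was lower (-0.68), and SLC16A1 was lower too. The 10 lower genes included SLC35A4, at 81.5 and 69.2 against 216 and 245 (-1.61 ± 0.18, adjusted p = 1.23e-05), SLC30A9 (-1.32 ± 0.18) and the soluble SLC9A3R1 (-1.32 ± 0.24) and SLC9A3R2 (-1.37 ± 0.34). SLC3A2, overlapping its controls with ERM, was higher in the nuclear fraction, at 326 and 300 against 95.6 and 159 (1.30 ± 0.22, adjusted p = 0.000269).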

How the data were processed

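APEX-seq counts per gene were deposited by the authors as raw whole numbers, 97 libraries in 49 groups. Per the submitters' processing notes, Trimmomatic, STAR, HTSeq, SAMtools, bedtools and DESeq2 were used with GRCh38; versions are not given in the sources used here. The authors' deposited tables of log2 fold changes and p-values served only to pair gene identifiers with names, apart from the SLC7A5 values quoted above. Libraries were stranded, per the labels' protocols; the counting setting is not given in the sources used here. The genes and lists were chosen with earlier results of these data known.

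Each table was fitted with edgeR 4.0.16 (R 4.3.3) on the deposited counts: filterByExpr, TMM, 1 model over all groups, quasi-likelihood F test, Benjamini-Hochberg adjustment over all genes tested, SE from the log2 fold change and F. A technical replicate of MITO poly(A) labelled replicate 2, a group of its own among the 97 libraries, was left out of every fit. The fit was tested on counts simulated with a single fixed spread for the ERM, OMM and NES libraries. Missing genes such as those of some real libraries were not simulated, so calls there were not checked. Alternatives were DESeq2 1.42.0, RLE factors, no filter, only the compared libraries, a replicate block, each library left out and, added after seeing the data, all 18 controls. Named genes were the largest calls that moved the same way in both replicates, the smallest p per substrate group, the location lists and a fixed list of well-known carriers; SLC22A15 and SLC46A3 are given by level. Coding windows came from GENCODE 29 transcripts. Counting error limits low genes: 50 of the 153 were under 20 CPM.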

Additional observations from a re-analysis of the deposited data

Results flagged for a closer look

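Tests of a difference between 2 labelling effects called some of the 153 SLC genes. ERM against NES called 30 and OMM against NES called 14, all higher at the membrane construct (background 4.17% and 3.07% higher). Under cycloheximide OMM against NES called 47, of which 46 were higher and 1 lower (background 14.8% and 7.25%). Puromycin against cycloheximide with OMM called 24, all lower under puromycin (background 6.71% lower). Cycloheximide against no drug with OMM called 4, all higher under cycloheximide. That is 2.61% of the 153, near the background of 2.89%. In nocodazole OMM against NES called 18 at 3 min and 2 at 30 min, all higher (background 6.07% and 0.719%). Each count is from an edgeR quasi-likelihood interaction test with Benjamini-Hochberg adjustment over all genes tested.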

How the results depend on the processing

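Counts are of the 153 SLC genes called in either direction. Shares over all genes are not given for these alternatives. With DESeq2 in place of edgeR they were 17 for NLS, 17 for NIK, 27 for LMA, 2 for NucPore, 12 for NES, 50 for ERM against NES, 30 for OMM against NES, 3 for ERM against OMM, 6 for MITO total RNA, 1 and 2 for OMM against NES in puromycin and CCCP, 48 for puromycin against cycloheximide with OMM, 24 for unlabelled CCCP against cycloheximide, 12 for puromycin against no drug, 34 for OMM at 30 min of nocodazole, 39 and 15 for OMM against NES at 3 and 30 min, and 11 for 2 h against 3 min. With only the libraries compared they were 30 for NLS, 0 for NIK, 0 for NES, 16 for OMM, 3 for MITO, 0 for MITO total RNA, 4 for OMM against NES, 32, 22 and 15 for OMM in cycloheximide, puromycin and CCCP, 16 for OMM against NES in cycloheximide, 0 for both unlabelled drug comparisons, 2 and 0 for puromycin and cycloheximide against no drug, 15 and 0 for OMM at 3 and 30 min, and 0 for OMM against NES at either time and for 2 h against 3 min. With no filter on low counts they were 3 for MITO total RNA, 9 for OMM puromycin, 1 for OMM against NES in CCCP, 37 for puromycin against cycloheximide, 17 for unlabelled CCCP against cycloheximide, 8 and 8 for puromycin and cycloheximide against no drug, 11 for OMM against NES at 30 min and 5 for 2 h against 3 min. With RLE size factors they were 2 for OMM puromycin, 1 for puromycin against no drug and 1 for OMM against NES at 30 min. Against the controls of all 9 constructs, a setting chosen after seeing the data, they were 26 for NLS, 32 for NIK, 34 for LMA, 6 for NucPore, 7 for NES, 83 for ERM and 79 for OMM, SLC7A5 in NES turned to -0.11 and SLC9A3R2 in OMM to -0.02. The causes were not tested.

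The replicate numbers did not pair the libraries: the correlation of same-numbered deviations ran from -0.18 to 0.03 over the constructs and treatments and was 0.16 between the fractions. With the replicate block the counts were 16 for NIK, 6 for NES, 1 for ERM against OMM, 0 for MITO total RNA, 1 and 0 for unlabelled puromycin and CCCP against cycloheximide, 6 and 7 for puromycin and cycloheximide against no drug, 14 and 13 for OMM at 3 and 30 min, 3 and 1 for OMM against NES at 3 and 30 min, and 33 for 2 h against 3 min.

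Leaving out 1 library at a time gave 31 to 49 for ERM, 16 to 44 for ERM against NES, 0 to 5 for ERM against OMM, 5 to 11 for LMA, 3 to 6 for MITO, 0 to 9 for MITO total RNA, 0 to 30 for NES, 4 to 31 for NIK, 2 to 4 for NLS, 0 to 6 for NucPore, 16 to 40 for OMM, 7 to 15 for CCCP, 57 to 95 for cycloheximide, 0 to 0 for puromycin, 2 to 39 and 0 to 11 for cycloheximide and puromycin against no drug, 0 to 1 for 2 h against 3 min, 5 to 28 for OMM against NES and 27 to 84, 0 to 1 and 0 to 2 in cycloheximide, puromycin and CCCP, 3 to 38 and 1 to 43 in nocodazole at 3 and 30 min, 26 to 54 and 6 to 53 for OMM at 3 and 30 min, 11 to 65 for puromycin against cycloheximide, 14 to 63 and 7 to 50 for the unlabelled puromycin and CCCP comparisons with cycloheximide, and 84 to 116 for the fractions. The balance of directions turned in 4 of these: 9 calls for MITO total RNA without labelled replicate 2, 63 and 50 for the unlabelled comparisons without OMM cycloheximide unlabelled replicate 1, and 6 for cycloheximide against no drug without OMM unlabelled replicate 1. A protein hydropathy scale planned as an alternative to the codon windows was not run. With 2 libraries a group, low counts limit what can be called for genes under 20 CPM.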
